A study of Mus musculus with 6 samples.

Results

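Mature dendritic cells marked by Ccr7 and Fscn1 were taken from live CD45+ cells sorted from Py8119 tumours, a mouse mammary tumour line grown for 4 weeks in the mammary gland of female mice. A cell was a member when it held at least 2 UMIs of Ccr7, 3 of Fscn1 and 5 of H2-Ab1, no UMI of Cd3d, Cd3e, Cd3g or Cd79a, and when C1qa, C1qb and C1qc together made up less than 1% of its UMIs. Of 40418 cells with at least 200 genes and at most 15% mitochondrial UMIs, 109 met this rule, and all 6 libraries contributed. The cells were chosen by these values, so the 3 marker genes describe the choice and are not results.

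Each of the 6 groups was 1 library of single-cell 3' UMI counts, and the labels do not say how many mice a library holds. The libraries with a knockout (KO) host came from intact Mtdh KO mice, from Mtdh KO mice given KO marrow, and from Mtdh KO mice given wild-type (WT) marrow. The libraries with a WT host came from WT mice given Mtdh KO marrow, from WT mice given WT marrow, and from intact WT mice. Recipients were irradiated, and tumour cells followed 8 weeks after the marrow; the labels give neither the ages nor the share of host cells left, nor how the Mtdh allele was made. An intact mouse carries its genotype in host and marrow alike. The design asks whether the genotype of the host, that of the marrow-derived cells, or both, alters the tumour's immune cells. Mtdh encodes metadherin, an RNA-binding oncoprotein of the endoplasmic reticulum and nuclear periphery.

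Dendritic cells sample antigen in a tissue and, on maturation, switch on the chemokine receptor Ccr7, which guides them along Ccl19 and Ccl21 to the draining lymph node. Fscn1 encodes fascin, which bundles actin into the long dendrites of the mature cell. Maturation also brings costimulatory molecules, the inhibitory ligands Cd274 and Cd200, and the chemokines Ccl17 and Ccl22, while uptake of antigen is reduced. In tumours such cells are known as mature or migratory dendritic cells, or as regulatory dendritic cells for their mixture of stimulatory and inhibitory genes. Transcription of the MHC class II genes depends on the coactivator Ciita, which dendritic cells are known to shut down as they mature while class II protein stays on the surface.

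The libraries held 85616443 to 142779550 UMIs over all barcodes, with medians of 10748 to 19374 UMIs per cell that passed the filter. The 2 intact libraries were counted with another software version than the 4 transplanted ones. Libraries shared 0.133% to 0.348% of the smaller library's barcodes, pair by pair. The members held 3645 to 45955 UMIs, with a median of 12099, and their summed UMIs per library ran from 104200 to 436333. Mtdh itself in the members was set beside the marrow labels. It stood at 13.8 CPM in intact KO, 13.1 CPM in KO marrow in KO host and 14.1 CPM in KO marrow in WT host, against 48.0 CPM in WT marrow in KO host, 48.0 CPM in WT marrow in WT host and 124 CPM in intact WT. CPM here scale a gene's summed UMIs to all UMIs of the same cells. Levels of Mtdh did not overlap between marrow genotypes, but the difference was not called (log2 fold change -2.23, SE 0.61, edgeR adjusted p = 0.654). Its UMIs came from 5, 4 and 2 members with KO marrow and 10, 3 and 5 with WT marrow, in the same order. With so few cells this is a weak check of the labels.

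The label was checked against genes that the rule did not use. Summed over 24 other genes of mature dendritic cells, the members reached 12068 to 25334 CPM per library, whereas cDC1-like cells reached 1419 to 2653 CPM, cDC2-like cells 2150 to 5384 CPM, macrophages 1250 to 2176 CPM and T cells 2147 to 3284 CPM. The cDC1-like and cDC2-like cells are the conventional dendritic cells of the same libraries, chosen by Xcr1 and Clec9a or by Cd209a. Relb, the NF-kappa-B subunit that dendritic cell maturation needs, had 300 to 653 CPM in the members, against 26.4 to 82.8 CPM in cDC1-like cells and 37.8 to 136 CPM in cDC2-like cells. Flt3, the growth factor receptor of the dendritic lineage, had 75.2 to 266 CPM in the members and 0.184 to 0.417 CPM in macrophages.

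Markers of the conventional subsets were mixed. Over 16 cDC1 genes the members summed to 1340 to 2400 CPM, against 3329 to 6315 CPM in cDC1-like cells. Over 17 cDC2 genes they summed to 2420 to 7946 CPM, against 6511 to 11472 CPM in cDC2-like cells, and the members of WT marrow in WT host lay above the lowest cDC2-like library. The cDC2 list includes Ccl17, a chemokine that maturation also brings. Ccl17 made up most of the cDC2 sum in these highest members, where 1 cell held 183 of its 463 UMIs. Whether the overlap remains without Ccl17 was not tested. The lists hold the genes by which the conventional cells were chosen. Among those genes, Cd209a was at 0 in every library of members and Xcr1, the chemokine receptor of cDC1, ran from 0 to 39.0 CPM. Of the 109 members, 18 held a UMI of Xcr1 or Clec9a, which were 8, 3 and 4 cells in intact KO, KO marrow in KO host and WT marrow in KO host, against 2, 1 and 0 cells in KO marrow in WT host, WT marrow in WT host and intact WT. The cells were not assigned to a subset of origin.

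The 20 genes that stood highest in the members relative to all 3 other myeloid classes are listed as a description, since genes of chosen cells are no test. They were Fscn1, Ccr7, Il12b, Cacnb3, Ccl22, Gm13546, Ccl5, Mreg, Il4i1, Scin, Cd200, Nudt17, Tnfrsf4, Car2, Apol7c, Serpinb9, Ikzf4, Samsn1, Adcy6 and Tmem123. Ccr7 exceeded cDC1-like, cDC2-like and macrophage levels by at least 37.2-fold and Fscn1 by at least 113-fold, as medians over libraries with 10 CPM added. Il12b, the p40 subunit shared by interleukins 12 and 23, exceeded them by at least 31.0-fold. Il4i1, a secreted amino acid oxidase that restrains T cells, exceeded them by at least 13.5-fold, and Serpinb9, an inhibitor of granzyme B, by at least 8.62-fold. Cacnb3, a calcium channel subunit, stood at 426, 461 and 375 CPM in intact KO, KO marrow in KO host and WT marrow in KO host, and at 216, 250 and 371 CPM in KO marrow in WT host, WT marrow in WT host and intact WT.

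**Figure D1:**
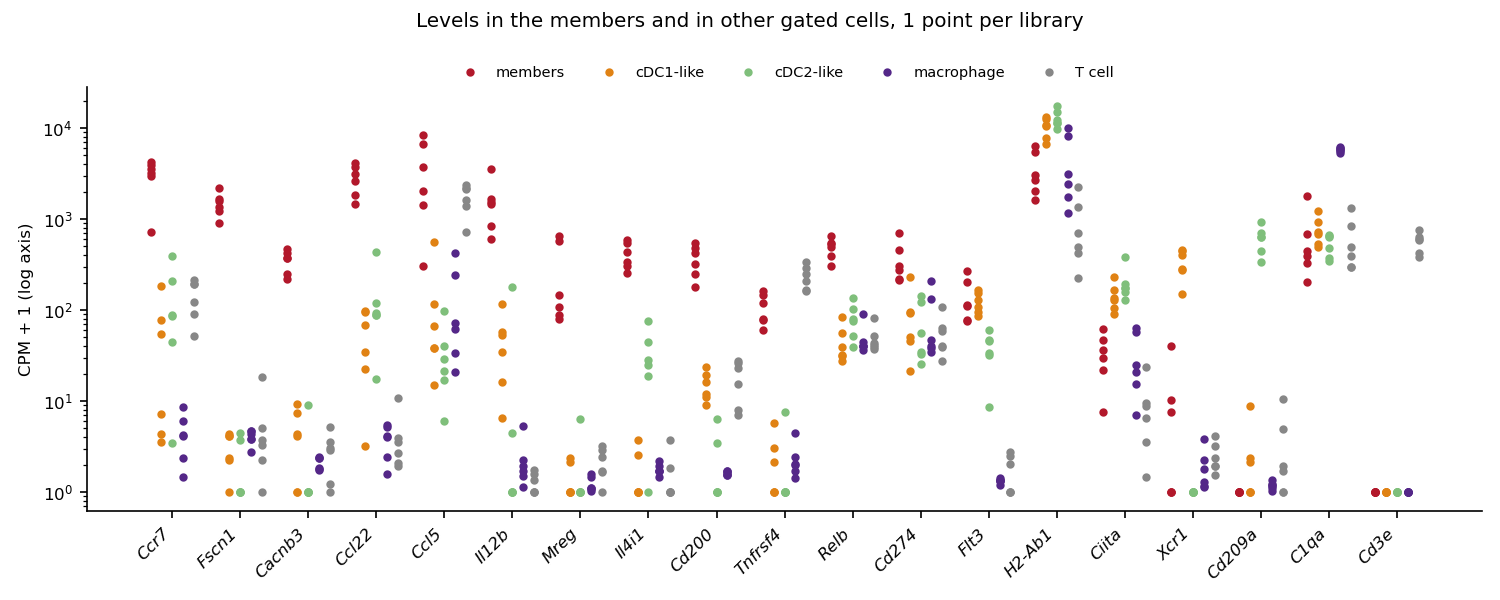
Levels of marker genes in mature dendritic cells and in 4 other cell classes, in CPM plus 1 on a log axis with 1 point per library. Cacnb3, Mreg and Relb, which chose no cells, lie higher in the members of every library than in the other classes. The rule and the choice of the other classes set the differences in Ccr7, Fscn1, C1qa, Cd3e, Xcr1 and Cd209a.

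Markers of other cells were also counted. The 15 macrophage genes, which include the C1q genes that the rule limited, summed to 5791, 6090 and 6881 CPM in the members of intact KO, KO marrow in KO host and WT marrow in KO host, and to 4547, 2131 and 20729 CPM in those of KO marrow in WT host, WT marrow in WT host and intact WT. Macrophages themselves held 41348 to 70958 CPM of these genes, and T cells, which do not make them, held 5220 to 11471 CPM. Against T cells of the same library, members lay higher in WT marrow in KO host, at 6881 against 5593 CPM. They also lay higher in intact WT, at 20729 against 11037 CPM. In intact KO, KO marrow in KO host, KO marrow in WT host and WT marrow in WT host, members lay below their own T cells. The 14 T cell genes, of which the rule itself set Cd3d, Cd3e and Cd3g to 0, summed to 8.83 to 32.7 CPM in the members, against 4557 to 7530 CPM in T cells. Of 11 genes of B and plasma cells, 6 were at 0 in all members, including Ms4a1 and Pax5 and also Cd79a, which the rule set to 0. The neutrophil genes summed to 96.3, 1305 and 590 CPM in intact KO, KO marrow in KO host and WT marrow in KO host, against 70.4, 192 and 44.1 CPM in KO marrow in WT host, WT marrow in WT host and intact WT, with Ly6g at 0 throughout.

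The intact WT library needs separate mention, because it held only 5 members. Of these, 2 had doublet scores within the top 6% of their library, C1q shares of 0.696% and 0.855%, and 286 and 846 UMIs of the macrophage gene Lyz2; the other 3 held 9 to 17 UMIs of Lyz2. The 2 cells with top scores held 36224 and 37780 UMIs in all, against 10212 to 18674 in the other 3. Most of the UMIs summed for intact WT came from these 2 cells, so they weigh most in its CPM. Over all libraries, 8 of the 109 members had such scores. Leaving out the cells with top scores is given where it changes a result.

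The limits of the rule cut through a continuous range for 1 marker in particular. No member had exactly 2 UMIs of Ccr7, and 16 cells failed the rule with 1 UMI. For Fscn1, 5 members had 3 UMIs and 4 cells had 2. For H2-Ab1, a class II gene, 10 members had exactly 5 UMIs and 14 cells failed with 4. Without the H2-Ab1 criterion the same rule found 216 Ccr7 Fscn1 cells, of which 107 held fewer than 5 UMIs of H2-Ab1. This wider definition was added after the data had been seen, and its results are set beside those of the 109 members.

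The Ccr7 Fscn1 cells ran from high to very low class II message. The split at 20 and 5 UMIs of H2-Ab1 used here was set after the values were seen, and the levels are a description. With at least 20 UMIs there were 47 cells, with 5 to 19 UMIs 62 cells, and below 5 UMIs 107 cells. Genes of the same pathway followed H2-Ab1. H2-Aa, the alpha chain that pairs with the H2-Ab1 product, had 6651, 2062 and 869 CPM over these 3 levels from high to low. Cd74, the invariant chain that holds class II molecules until they are loaded, had 14470, 3846 and 2281 CPM. Ciita, the class II coactivator, had 59.2, 6.55 and 1.94 CPM.

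Several genes of maturation had similar levels throughout, as pooled over the cells of all 6 libraries. Ccr7, a gene of the rule, stood at 3309, 3246 and 2665 CPM from the high to the low H2-Ab1 level, and Relb at 506, 504 and 445 CPM. The costimulatory ligand Cd86 had 623, 638 and 634 CPM, and Cd83, a surface glycoprotein of mature dendritic cells, had 1101, 1009 and 1088 CPM. Cd86 differed by library, so its pooled levels depend on the mix. Without the top cell of each library, members held 1135 CPM in intact KO and 270 to 335 CPM in the others. The lineage genes Zbtb46, with 129, 115 and 115 CPM, and Flt3, with 135, 172 and 207 CPM, were held at all 3 levels. Fscn1 ran the other way, at 1074, 2081 and 2092 CPM, as did Cacnb3 at 276, 473 and 597 CPM. The cytokine gene Il12b stood lower at each lower level, with 1825, 762 and 445 CPM, and so did Il4i1, with 474, 288 and 221 CPM.

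Ccl5, a chemokine that draws T cells and monocytes, differed most between the levels among the chemokines. It had 2505, 6691 and 8604 CPM from high to low H2-Ab1. At the high level, 1 cell of WT marrow in KO host held 1309 UMIs, most of the Ccl5 there. Ccl17 had 2596, 952 and 1337 CPM, and Ccl22 had 3046, 2164 and 2338 CPM; both bind Ccr4 on regulatory and Th2-type T cells. Il15, which sustains NK cells and CD8 T cells, had 25.6, 79.9 and 110 CPM. C1qa, a macrophage gene, had 748, 393 and 147 CPM, and Lyz2 had 3280, 1956 and 804 CPM in the same order. Single cells carried much of the C1qa, such as 97 of 129 UMIs in the middle level of WT marrow in KO host. Doublet scores within the top 6% also moved with the levels, in 6 of 47, 2 of 62 and 0 of 107 cells, as did median depth, at 14073, 10950 and 9405 UMIs. The part of doublets and depth in these levels was not tested.

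**Figure D2:**
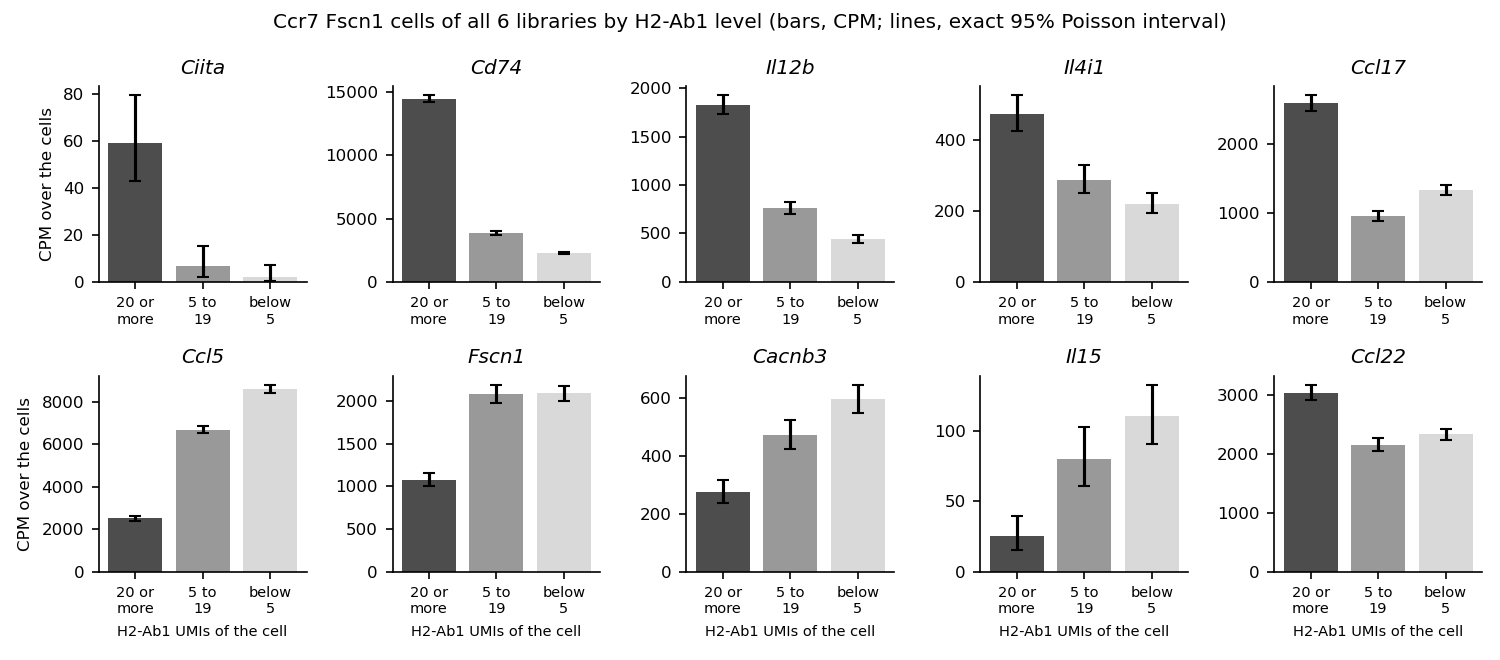
Levels of 10 genes in Ccr7 Fscn1 cells split by their H2-Ab1 UMIs; bars give CPM over the cells of all 6 libraries and lines exact 95% Poisson intervals for counting error. Cd74, Ciita, Il12b and Il4i1 are lower at lower H2-Ab1 levels, whereas Ccl5, Cacnb3 and Il15 are higher, with Ccl5 at 2505, 6691 and 8604 CPM. At the high level 1 cell held 1309 UMIs of Ccl5, most of that bar.

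The H2-Ab1 criterion also meets a background that differs between libraries. T cells do not transcribe H2-Ab1 in the mouse, so their UMIs of it measure free RNA. Of the T cells, 25.1%, 27.3% and 7.36% held at least 5 UMIs of H2-Ab1 in intact KO, KO marrow in KO host and WT marrow in KO host, against 3.96%, 3.63% and 5.16% in KO marrow in WT host, WT marrow in WT host and intact WT. Median depths of these T cells were 5156 to 7558 UMIs, and those of the members 8610 to 18674 UMIs. A cell with 5 to 19 UMIs of H2-Ab1 can therefore lie near the background of its library, most of all with KO in both host and marrow. Cells at this level numbered 16, 24 and 11 in intact KO, KO marrow in KO host and WT marrow in KO host, against 6, 3 and 2 in KO marrow in WT host, WT marrow in WT host and intact WT. The part of free RNA in that difference was not tested.

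**Figure D3:**
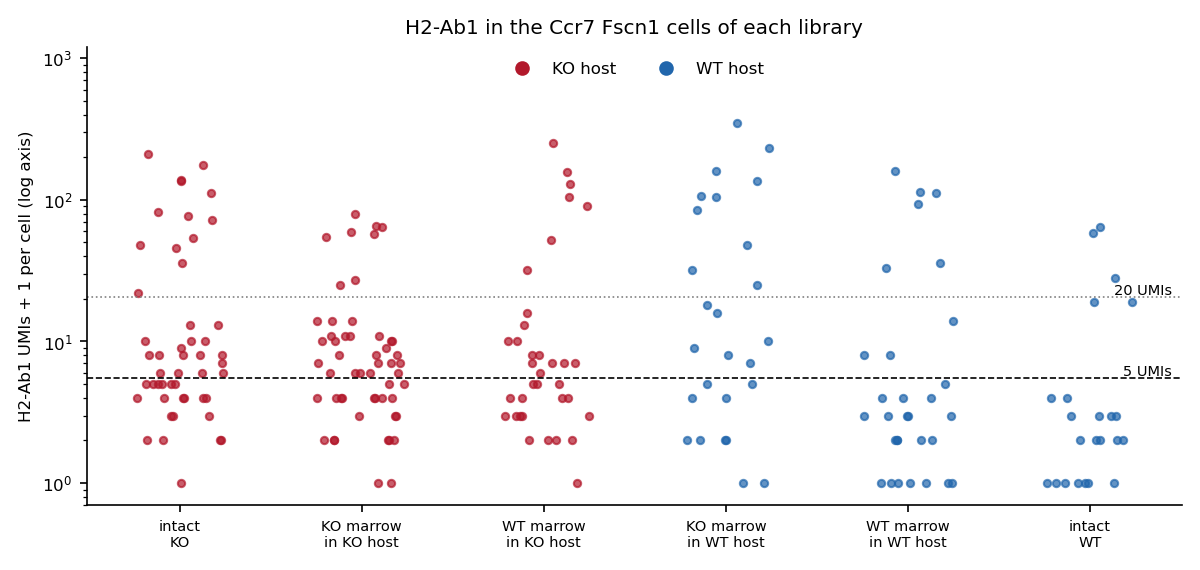
UMIs of H2-Ab1, plus 1, in each of the 216 Ccr7 Fscn1 cells, by library, on a log axis; lines mark 5 and 20 UMIs, and cells above the lower line are members. Between the lines lie 51 cells in KO hosts and 11 in WT hosts; above them 28 and 19; below them 58 and 49.

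Mature dendritic cells made up a larger share of CD45+ cells in KO hosts than in WT hosts, by a mean of 2.68-fold over 3 libraries each. The shares were 0.413% in intact KO (29 of 7026 cells, exact 95% interval 0.277% to 0.592%), 0.393% in KO marrow in KO host (32 of 8143, 0.269% to 0.554%) and 0.313% in WT marrow in KO host (18 of 5750, 0.186% to 0.494%). In WT hosts they were 0.272% with KO marrow (16 of 5877, 0.156% to 0.442%), 0.139% with WT marrow (9 of 6498, 0.0633% to 0.263%) and 0.0702% in intact WT (5 of 7124, 0.0228% to 0.164%). The 3 libraries of each host did not overlap, and each of the 3 matched pairs was higher with the KO host. The mean log2 difference was 1.42, with an exact two-sided permutation p of 0.1, the smallest that 3 against 3 libraries can give. In the transplanted libraries alone, which separate host from marrow, the mean ratio was 1.81-fold, with an exact permutation p of 0.333, the smallest that 2 against 2 can give. Intervals cover counting error only, and a larger share can mean more of these cells or fewer others.

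The size of that difference moved with the definition. Without the H2-Ab1 criterion the shares were 0.697%, 0.651% and 0.609% in intact KO, KO marrow in KO host and WT marrow in KO host, against 0.442%, 0.462% and 0.323% in KO marrow in WT host, WT marrow in WT host and intact WT. Hosts still did not overlap, and the mean ratio was 1.61-fold (log2 0.69, exact permutation p = 0.1). With a stricter rule, which asks for 10 UMIs of H2-Ab1 among other limits, the mean log2 difference was 0.39 (exact permutation p = 0.7), and after every cell had been thinned to 3000 UMIs it was 0.61 (exact permutation p = 0.6), with 2 of 3 pairs higher. Without the intact WT library it was 0.93. As a share of the members, cDC1-like and cDC2-like cells together, the members made up 24.2%, 31.1% and 27.3% in intact KO, KO marrow in KO host and WT marrow in KO host, against 29.6%, 13.8% and 7.81% in KO marrow in WT host, WT marrow in WT host and intact WT. By that measure the hosts overlapped (mean log2 difference 0.89, exact permutation p = 0.3).

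**Figure D4:**
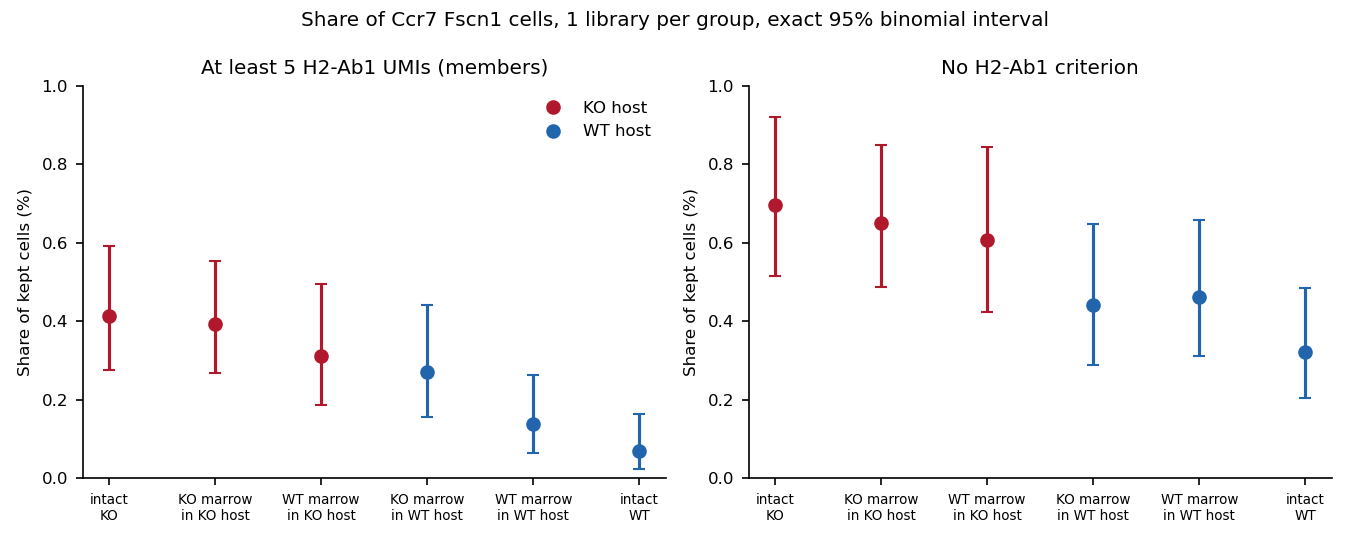
Share of kept cells, in percent, that were members (with H2-Ab1) and Ccr7 Fscn1 cells without the H2-Ab1 criterion, by library, with exact 95% binomial intervals for counting error. Under both definitions the 3 KO host libraries lie above the 3 WT host libraries, and the spread narrows without the criterion.

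By marrow genotype the share averaged 2.44-fold higher with KO marrow (log2 1.29, exact permutation p = 0.2, higher in 3 of 3 pairs), and the groups overlapped: WT marrow in KO host, at 0.313%, lay above KO marrow in WT host, at 0.272%. Without the H2-Ab1 criterion the mean log2 difference by marrow was 0.38 (exact permutation p = 0.3), and 2 of 3 pairs were higher with KO marrow. After thinning to 3000 UMIs it was 1.17 (exact permutation p = 0.1, the smallest possible), with 3 of 3 pairs higher. That rested on 7, 8 and 7 members in intact KO, KO marrow in KO host and KO marrow in WT host. WT marrow in KO host, WT marrow in WT host and intact WT then held 4, 4 and 2. With KO in both host and marrow against the other 4 libraries, under the main rule, the mean log2 difference was 1.25 (exact permutation p = 0.133, the smallest possible for 2 against 4). Among the conventional cells, the share of cDC1-like cells differed by host by a mean log2 of 0.63 (exact permutation p = 0.2) and that of cDC2-like cells by -0.14 (exact permutation p = 0.5). Whether the members' difference exceeded theirs was not tested.

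Gene levels within the members were compared between hosts on the UMIs summed per library. Of 3982 genes tested, Ccl5 and Klf2 rose and H2-M2 fell in KO hosts, 3 genes or 0.0753% of those tested (0.0502% higher, 0.0251% lower), and 183 genes had an unadjusted p under 0.05. In bulk sums of so few cells, a change in each cell and a change in which cells met the rule cannot be told apart.

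Ccl5 (ENSMUSG00000035042, chr11:83525778-83530518, minus strand, mm10) is the chemokine described above. It stood at 3678 CPM in intact KO, 6577 CPM in KO marrow in KO host and 8407 CPM in WT marrow in KO host, against 1412 CPM in KO marrow in WT host, 2044 CPM in WT marrow in WT host and 300.2 CPM in intact WT. All KO hosts lay above all WT hosts (log2 fold change 2.54, SE 0.40, edgeR adjusted p = 0.0111). Over all 216 Ccr7 Fscn1 cells the difference was not called: 5679, 7008 and 8476 CPM in intact KO, KO marrow in KO host and WT marrow in KO host, against 3175, 5619 and 5979 CPM in KO marrow in WT host, WT marrow in WT host and intact WT (log2 fold change 0.76, edgeR adjusted p = 0.999). The members of KO hosts held more cells with 5 to 19 UMIs of H2-Ab1, the level at which Ccl5 was also higher, and the part of that mixture was not tested. In the cells with at least 20 UMIs, Ccl5 had 688, 1725 and 9960 CPM in intact KO, KO marrow in KO host and WT marrow in KO host. At this level KO marrow in WT host, WT marrow in WT host and intact WT had 667, 1367 and 447 CPM. Of the 7 such cells in WT marrow in KO host, 1 held 1309 Ccl5 UMIs and none of the others more than 3. T cells held 725, 1604 and 2115 CPM of Ccl5 in the KO host libraries and 2335, 2200 and 1370.5 CPM in the WT host libraries, in the same order. The call was lost without WT marrow in KO host (edgeR adjusted p = 0.48) or KO marrow in WT host (0.96).

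Klf2 (ENSMUSG00000055148, chr8:72319033-72321656, plus strand, mm10) encodes a zinc-finger factor best known for quiescence and trafficking of lymphocytes and for restraint of myeloid activation. It had 117 CPM in intact KO, 226 CPM in KO marrow in KO host and 252 CPM in WT marrow in KO host, against 65.7 CPM in KO marrow in WT host, 38.4 CPM in WT marrow in WT host and 26.5 CPM in intact WT. Hosts did not overlap (log2 fold change 2.06, SE 0.38, edgeR adjusted p = 0.0291). Over the 216 Ccr7 Fscn1 cells it rose as well, with 101, 206 and 196 CPM in intact KO, KO marrow in KO host and WT marrow in KO host, against 48.7, 46.7 and 16.8 CPM in KO marrow in WT host, WT marrow in WT host and intact WT (log2 fold change 2.14, edgeR adjusted p = 0.00122). Without the 1 cell with most Klf2 in each library, the members had 76.8, 141 and 177 CPM in the KO host libraries and 49.0, 32.4 and 0 CPM in the WT host libraries, in the same order. Macrophage levels of Klf2 overlapped between hosts, at 444, 332 and 691 CPM in KO hosts and 642, 538 and 345 CPM in WT hosts. DESeq2 did not call Klf2 (adjusted p = 0.93), nor did edgeR without KO marrow in KO host (adjusted p = 0.0894), WT marrow in KO host (0.885) or KO marrow in WT host (0.169).

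H2-M2 (ENSMUSG00000016283, chr17:37480851-37483552, minus strand, mm10) encodes a nonclassical class I molecule of the H2-M region. It had 55.0 CPM in intact KO, 114 CPM in KO marrow in KO host and 39.0 CPM in WT marrow in KO host, against 469 CPM in KO marrow in WT host, 441 CPM in WT marrow in WT host and 132 CPM in intact WT. The call (log2 fold change -2.55, SE 0.37, edgeR adjusted p = 0.00382) rested on few cells. In KO marrow in WT host, 84 of 100 UMIs came from 1 cell, and in WT marrow in WT host 38 of 46. Without the top cell of each library the levels overlapped, at 44.2, 16.7 and 22.2 CPM in KO hosts and 80.4, 87.5 and 9.78 CPM in WT hosts. Without cells of top doublet scores the log2 fold change was -1.66, not called, and the call was also lost without KO marrow in KO host (edgeR adjusted p = 0.0739) or WT marrow in KO host (0.325).

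Other genes with the same order in every pair did not pass the test. Gnb4, a G protein beta subunit, had 722, 667 and 590.4 CPM in intact KO, KO marrow in KO host and WT marrow in KO host, against 225, 221 and 291 CPM in KO marrow in WT host, WT marrow in WT host and intact WT (log2 fold change 1.40, edgeR adjusted p = 0.161). Fgl2, a secreted fibrinogen-like protein that restrains dendritic cells and T cells, had 98.5, 118 and 192 CPM against 28.2, 57.6 and 35.3 CPM in those libraries (log2 fold change 1.96, edgeR adjusted p = 0.0817). Aldh1a2, which makes retinoic acid, had 48.1, 68.7 and 77.9 CPM in the KO host libraries and 18.8, 0 and 0 CPM in the WT host libraries (edgeR adjusted p = 0.20). In the KO host libraries 1 cell each held 14 of 21, 11 of 21 and 18 of 26 Aldh1a2 UMIs. Without the top cell of each library the levels were 16.8, 34.0 and 26.3 CPM, against 0 CPM in each WT host library. Over the 216 Ccr7 Fscn1 cells the Aldh1a2 UMIs were 24, 22 and 29 in KO hosts and 9, 3 and 4 in WT hosts. Isg15, an interferon-induced ubiquitin-like protein, had 243, 356 and 351 CPM against 197, 67.2 and 53.0 CPM (log2 fold change 1.45, edgeR adjusted p = 0.161). Over all 216 Ccr7 Fscn1 cells Isg15 rose, with 204, 309 and 227 CPM in KO hosts and 140, 66.8 and 20.2 CPM in WT hosts (log2 fold change 1.62, edgeR adjusted p = 0.0158). That wider definition called 3 of 4912 genes (0.0611%), which were H2-M2, Klf2 and Isg15, so 2 were shared with the members' 3. Most Isg15 UMIs of a library lay in 1 member (58 to 69 in KO hosts, 5 to 37 in WT hosts). The part of free RNA in the Isg15 levels was not tested.

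**Figure D5:**
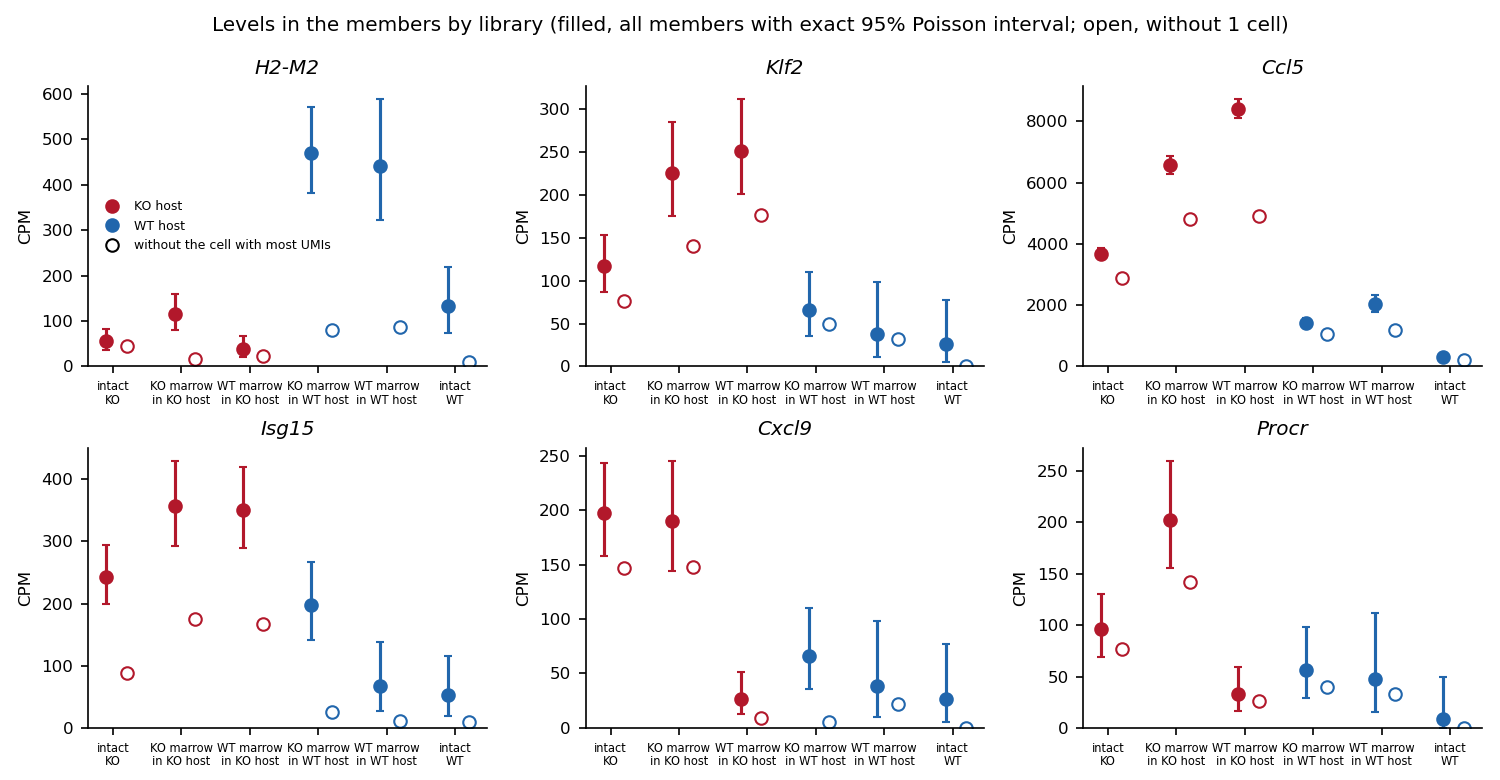
Levels of 6 genes in the members of each library, in CPM, with KO hosts in red and WT hosts in blue. Filled points hold all members, with exact 95% Poisson intervals for counting error, and open points leave out the 1 cell with most UMIs of the gene. Ccl5 and Klf2 lie higher in all 3 KO hosts with and without that cell, the H2-M2 values come together without it, and Cxcl9 and Procr are highest in intact KO and KO marrow in KO host.

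By marrow genotype no gene was called among the members: 0 of 3982 genes (0%), with 165 at an unadjusted p under 0.05 and 0 called by DESeq2. Ifitm3, an interferon-induced membrane protein, had 234, 402 and 272 CPM in intact KO, KO marrow in KO host and KO marrow in WT host, against 159, 125 and 44.1 CPM in WT marrow in KO host, WT marrow in WT host and intact WT (log2 fold change 1.32, edgeR adjusted p = 0.654). Il12b had 607, 837 and 1473 CPM with KO marrow and 1666, 3560.5 and 1554 CPM with WT marrow, in the same order of libraries (edgeR adjusted p = 0.917). These did not overlap, but without the top cell of each library they did, at 518, 633 and 396 CPM with KO marrow and 970, 1871 and 433 CPM with WT marrow. Over the 216 Ccr7 Fscn1 cells 2 of 4912 genes were called (0.0407%): Cxcl9 rose (log2 fold change 2.35, edgeR adjusted p = 0.00678) and Ankrd33b, an ankyrin repeat gene, fell with KO marrow (log2 fold change -2.94, edgeR adjusted p = 0.00642).

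KO in both host and marrow was set against the other 4 libraries because earlier results of these data had set those libraries apart in other cells and its p-values take no account of this. In this contrast 6 of 3982 genes were called (0.151%), with 339 at an unadjusted p under 0.05. Cxcl9, Procr, Ly6a and Insl6 rose, and Cbr2 and Cmss1 fell. Without a term for transplantation none of the 6 was called, and DESeq2 called only Cbr2.

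Cxcl9 (chr5:92321347-92328079) encodes an interferon-gamma-induced chemokine that draws Cxcr3-bearing T cells. It had 197 CPM in intact KO and 190 CPM in KO marrow in KO host, against 27.0 CPM in WT marrow in KO host, 65.7 CPM in KO marrow in WT host, 38.4 CPM in WT marrow in WT host and 26.5 CPM in intact WT (log2 fold change 2.23, SE 0.40, edgeR adjusted p = 0.0113). Its UMIs came from 20 of 29 and 16 of 32 members in intact KO and KO marrow in KO host, and from 1 to 3 members in each of the other 4 libraries. Macrophages held 1967 and 2272 CPM with KO in both, against 28.5 to 201 CPM in the other 4, and T cells 251 and 234 CPM against 0 to 85.0 CPM. The members' levels with KO in both were thus below the background read from T cells, and the part of free macrophage RNA was not tested.

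Procr, the endothelial protein C receptor, had 96.3 CPM in intact KO and 203 CPM in KO marrow in KO host, against 33.0, 56.3, 48.0 and 8.83 CPM in WT marrow in KO host, KO marrow in WT host, WT marrow in WT host and intact WT (log2 fold change 2.25, SE 0.41, edgeR adjusted p = 0.0113). T cells held 0.466 to 8.89 CPM of Procr and macrophages 1.02 to 24.5 CPM, below the members of the same library in each case. Insl6, a relaxin-family peptide, had 82.5 and 141 CPM with KO in both, against 36.0, 28.2, 19.2 and 17.7 CPM in the other 4 libraries (log2 fold change 2.11, edgeR adjusted p = 0.0457). Macrophages held 3.06 to 13.3 CPM of Insl6 and T cells 7.19 to 22.03 CPM.

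Ly6a, the interferon-inducible surface protein Sca-1, had 66.5 and 98.1 CPM with KO in both, 5.99 CPM in WT marrow in KO host and 0 CPM in the 3 WT host libraries. That was 59 UMIs against 2, a ratio of 30.4 with an exact counting interval of 8.05 to 257 (edgeR adjusted p = 0.00467). In KO marrow in KO host 22 of the 30 Ly6a UMIs came from 1 cell, and without it the level was 27.5 CPM. Macrophages had 504 and 952 CPM with KO in both, against 14.5 to 93.7 CPM in the other 4 libraries, and T cells 251 and 425 CPM against 172 to 389 CPM. Cbr2, a carbonyl reductase common in tumour macrophages, ran the other way: 2.29 and 0 CPM with KO in both, against 59.9, 23.5, 28.8 and 230 CPM in WT marrow in KO host, KO marrow in WT host, WT marrow in WT host and intact WT (edgeR adjusted p = 0.00024). Its 1 UMI against 54 gave a ratio of 0.0191 (0.000474 to 0.111), but 22 of the 26 UMIs in intact WT and 15 of the 20 in WT marrow in KO host came from 1 cell each. Without the top cell of each library Cbr2 had 0 and 0 CPM with KO in both, against 17.4, 14.5, 10.8 and 51.7 CPM in the other 4, in that order. Macrophages likewise held 42.2 and 48.2 CPM of Cbr2 with KO in both, against 265 to 384 CPM elsewhere. The part of macrophage RNA in both genes was not tested. Cmss1 had 174 CPM in intact KO and 874 CPM in intact WT, against at most 1 UMI in each of the 4 transplanted libraries. It overlaps genes on the other strand, and macrophages showed the same split, with 294 and 733 CPM in intact KO and intact WT.

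With the wider definition of 216 cells this contrast called 30 of 4912 genes (0.611%; 21 rose and 9 fell), of which 5 were among the members' 6. Those that fell included the macrophage genes Lyz2 and Mrc1, with Mrc1 at 346 CPM in intact WT and 22.9 to 55.2 CPM elsewhere. Camk1d also fell, but split by transplantation, at 307 and 904 CPM in intact KO and intact WT against 6.49 to 16.7 CPM in the transplanted libraries. Genes of class I presentation stood among those that rose. Tap1, which pumps peptides to class I molecules, had 186 and 234 CPM with KO in both, against 86.4, 90.9, 124 and 57.1 CPM in WT marrow in KO host, KO marrow in WT host, WT marrow in WT host and intact WT (log2 fold change 1.28, edgeR adjusted p = 0.0208). H2-K1, a classical class I heavy chain, also rose (log2 fold change 0.86, edgeR adjusted p = 0.0263), as did H2-Q6 and H2-Q7, whose reads are uncertain because class I genes share near-identical sequence. In the 109 members the same genes were not called: Tap1 had a log2 fold change of 1.29 (edgeR adjusted p = 0.112) and H2-K1 of 0.96 (adjusted p = 0.131). The part of free RNA from other cells in these class I levels was not tested.

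The start-proximal sequences of 4 genes are shown because class I genes and Isg15 were among those called in these cells and because class I promoters carry known elements for NF-kappa-B. Each is the 250 bases before the gene's start in RefSeq (GRCm38.p6), 5' to 3' on the gene's strand, at chr17:34000348-34000597 (minus) for H2-K1, chr17:35262844-35263093 (plus) for H2-D1, chr17:37483555-37483804 (minus) for H2-M2 and chr4:156200819-156201068 (minus) for Isg15. Capitals mark matches to half-sites searched on both strands: GGGG followed after 3 bases by CCCC, as in the class I kappa-B element, or GAAA followed after 2 bases by GAAA, as in the interferon-stimulated response element.
H2-K1: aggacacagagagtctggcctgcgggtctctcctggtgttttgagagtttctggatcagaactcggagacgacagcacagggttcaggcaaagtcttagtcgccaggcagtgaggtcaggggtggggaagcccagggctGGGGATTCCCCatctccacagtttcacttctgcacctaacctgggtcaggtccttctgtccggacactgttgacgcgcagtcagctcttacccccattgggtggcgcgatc
H2-D1: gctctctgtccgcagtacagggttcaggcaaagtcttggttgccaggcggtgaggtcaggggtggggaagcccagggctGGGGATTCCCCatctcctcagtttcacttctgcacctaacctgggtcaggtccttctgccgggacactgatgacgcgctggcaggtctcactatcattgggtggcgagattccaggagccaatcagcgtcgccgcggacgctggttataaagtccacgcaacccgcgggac
H2-M2: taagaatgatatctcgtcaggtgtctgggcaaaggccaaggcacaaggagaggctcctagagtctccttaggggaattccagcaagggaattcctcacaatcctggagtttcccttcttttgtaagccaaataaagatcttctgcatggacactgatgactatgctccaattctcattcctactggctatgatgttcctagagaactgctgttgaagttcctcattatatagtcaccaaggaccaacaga
Isg15: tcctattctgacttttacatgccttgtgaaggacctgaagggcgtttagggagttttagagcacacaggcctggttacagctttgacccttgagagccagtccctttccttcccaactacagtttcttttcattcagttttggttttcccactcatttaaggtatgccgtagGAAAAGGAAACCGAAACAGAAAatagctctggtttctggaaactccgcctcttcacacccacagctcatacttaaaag

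H2-K1 and H2-D1 each held 1 match to the GGGG and CCCC pair, which occurs in 287 of 32851 such windows (0.874%). Isg15 held 3 overlapping matches to the GAAA pair, which occurs in 978 of the windows (2.98%). H2-M2 held no match to either pair in this window, although it is a class I gene. Other forms of these elements were not searched in any of the windows. A match is a description of letters and shows neither binding nor a cause.

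The lists of related genes are described by how many members were called and by the median log2 fold change, beside medians of 0.02, 0.01 and 0.00 over all genes by host, by marrow and for KO in both. Of 19 genes of class I presentation, all tested, 17 had positive log2 fold changes by host (median 0.43), 19 by marrow (median 0.55) and 18 with KO in both (median 0.86); H2-M2 was the 1 gene called, lower by host. B2m, the class I light chain, had 3637 and 4497 CPM with KO in both, against 3033, 2970.3, 2188 and 1827 CPM in WT marrow in KO host, KO marrow in WT host, WT marrow in WT host and intact WT. Of 23 interferon response genes measured, 8 had enough UMIs to be tested; 7, 7 and 8 of them were positive (medians 0.86, 0.57 and 1.11), and Cxcl9 alone was called, for KO in both. Those that passed the filter had to have UMIs somewhere, so these counts cover the 8 genes only. The part of free RNA from other cells in the class I and interferon lists was not tested.

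The rule itself affects the class II genes through H2-Ab1. None of 10 tested was called by host; 0 had positive log2 fold changes, and the median was -0.69. H2-Aa had 4057, 3149 and 3375 CPM in intact KO, KO marrow in KO host and WT marrow in KO host, against 7517, 6747 and 3099 CPM in KO marrow in WT host, WT marrow in WT host and intact WT, which overlapped, and in the intact pair the level was higher with KO. Without the H2-Ab1 criterion 3 of 10 were positive and the median was -0.28.

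Among the chemokines, 9 were tested and Ccl5 alone was called by host (median of the list -0.11). Ccl22 had 1471 and 1825 CPM with KO in both, against 4124, 3102, 3704 and 2578 CPM in WT marrow in KO host, KO marrow in WT host, WT marrow in WT host and intact WT (log2 fold change -0.99, edgeR adjusted p = 0.171). These did not overlap, but without the top cell of each library they did, at 1315 and 1616 CPM with KO in both, against 2460, 2454, 2614 and 978 CPM in the other 4. Ccl17 had 1102 and 687 CPM against 2577, 2529, 4443 and 909 CPM in those libraries, which overlapped. Il12b had 607 and 837 CPM against 1666, 1473, 3560.5 and 1554 CPM (log2 fold change -1.46, edgeR adjusted p = 0.171). Without the top cell of each library the Il12b levels overlapped, at 518 and 633 CPM against 970, 396, 1871 and 433 CPM. In KO marrow in WT host 1 cell held 240 of 314 Il12b UMIs, and in intact WT 135 of 176.

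Of 12 costimulatory genes tested none was called, and the medians were 0.15 by host, 0.38 by marrow and 0.20 for KO in both. Cd40, the receptor through which helper T cells license dendritic cells, had 197, 226 and 120 CPM in intact KO, KO marrow in KO host and WT marrow in KO host, and 206, 317 and 159 CPM in KO marrow in WT host, WT marrow in WT host and intact WT. Of 13 inhibitory and regulatory genes none was called, and 11 were positive by host (median 0.39). Cd274, the PD-1 ligand, had 692, 304 and 219 CPM in the KO host libraries and 272, 211 and 459 CPM in the WT host libraries, which overlapped. Cd200, a ligand that dampens myeloid cells, had 481, 546 and 417 CPM against 178, 317 and 247 CPM, which did not overlap (log2 fold change 1.01, SE 0.35, edgeR adjusted p = 0.665). Socs2, a suppressor of cytokine signalling, had 355, 435 and 264 CPM against 235, 173 and 150.1 CPM (log2 fold change 0.71, edgeR adjusted p = 0.984).

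No gene was called by host in the lists that follow. They covered 16 genes of the NF-kappa-B pathway (median by host 0.14), 12 of survival and apoptosis (0.19), 15 of migration and the cytoskeleton (0.03), 15 factors of dendritic identity (0.00), 8 of the Th2-type response (-0.57), 11 of antigen uptake (-0.22) and 13 of dissociation stress (0.18). Batf3, a factor of the cDC1 programme, had 268, 324 and 243 CPM in the KO host libraries, against 155, 106 and 124 CPM in the WT host libraries (log2 fold change 0.97, SE 0.32, edgeR adjusted p = 0.592). S100a9, a neutrophil gene, had 2.29, 615 and 138 CPM in KO hosts and 4.69, 38.4 and 0 CPM in WT hosts (edgeR adjusted p = 0.161), so its UMIs came mainly from the KO hosts given marrow.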

How the data were processed

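Live CD45+ tumour cells of 6 libraries were profiled with 10x 3' v3.1 chemistry, 15000 cells loaded each. The authors deposited raw UMI counts for each gene and cell, made with Cell Ranger 7.0.1 for the intact and 6.1.1 for the transplanted libraries, per the file headers; the submitters' processing notes name mm10 and Seurat. The setting for intron reads is not stated there.

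Only the 30406 genes common to every file entered. A filter of at least 200 genes and at most 15% mitochondrial UMIs kept 40418 of 41267 barcodes; doublets were scored with Scrublet in scanpy 1.11.5 but not removed in the main results. UMIs of the members were summed per library and tested with edgeR 4.0.16 (TMM, robust quasi-likelihood, default expression filter, Benjamini-Hochberg at 0.05) in R 4.3.3, with terms for transplantation, host and marrow (2 residual degrees of freedom), or transplantation and KO in both (3). Because each group is 1 library, the error of the host and marrow fit is the disagreement among matched pairs. The KO-in-both fit has no matched pairs, and its error includes the spread among the transplanted libraries without KO in both, which differ in genotype. Shares were compared with exact permutation tests and Clopper-Pearson intervals (scipy 1.17.1); levels are CPM without TMM, with exact Poisson intervals.

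Members, lists, contrasts and tests were chosen with earlier results of these data known. Named genes were those past the threshold, up to 10 per direction (by host and marrow, with 1 sign in all pairs; for KO in both no such condition, and Cmss1 did not keep 1 sign), filled to 5 with genes of at least 100 UMIs that kept 1 direction in the pairs; up to 6 members per list; Mtdh; the rule's genes; and the 20 leading genes. Gene lists had no set test. The definition without H2-Ab1, the H2-Ab1 levels, the check of single cells and the sequences were added after the data had been seen; the genes named from them were chosen after their values were seen. On simulated data, the host, marrow and KO-in-both fits recovered 74%, 75% and 72% of 200 genes changed 4-fold among 3982, and 9.5%, 5.5% and 11.5% of those changed 2-fold. Alternatives were DESeq2 1.42.0, other scalings, no filter, other limits of the rule, thinning, doublet removal, and each library left out.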

Additional observations from a re-analysis of the deposited data

How the results depend on the processing

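The 6 libraries hold 5 to 32 members each, so depth and cell number limit every gene result; changes of 2-fold were seldom recovered on simulated data. Against 3 genes by host, 29 were called with no expression filter, 9 without top doublet scores, 0 without the transplantation term, and 0 under the stricter and the looser rule; leaving out each library gave 1 to 28. Against 0 by marrow, 18 were called with no filter, 1 in the transplanted libraries alone, 1 without top doublet scores and 2 without the H2-Ab1 criterion; leaving out each library gave 0 to 26. Against 6 for KO in both, the counts were 10 with no scaling factors, 1 with DESeq2, 48 with no filter, 52 in the transplanted libraries alone, 0 without the transplantation term, 1 under the looser rule, 2 without top doublet scores and 30 without the H2-Ab1 criterion; leaving out each library gave 5 to 190.

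Cbr2 was not called without intact WT (edgeR adjusted p = 0.079), Ly6a not without KO marrow in KO host (0.173), Insl6 not without KO marrow in KO host (0.262) or WT marrow in WT host (0.088), and Cmss1 not without intact KO, intact WT or WT marrow in WT host. Procr and Cxcl9 were not called without top doublet scores (0.113 and 0.141). Gnb4 and Fgl2, not called by host, passed with no filter (0.0254 and 0.00267). Ybx3, -1.27 by marrow and not called, was 0.15 under the looser rule.

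The log2 differences of the share, leaving out each library, were 0.93 to 1.91 by host, 0.76 to 1.84 by marrow and 0.82 to 1.54 for KO in both, all positive. Under the stricter rule they were 0.39, 0.59 and 0.14. Of 497 alternative values, 426 kept direction and side of the threshold, 14 came to pass it, 56 no longer did or moved, and 1 reversed. The cause was not tested. No paired analysis was possible because each group holds 1 library and the labels carry no replicate numbers; the pairs in the text match libraries by design, which differ in 1 factor (or, for the intact pair, in both).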

Other observations

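Several genes of mature dendritic cells split the members by transplantation and not by Mtdh genotype. Mreg, melanoregulin, had 108, 77.9, 145 and 86.4 CPM in KO marrow in KO host, WT marrow in KO host, KO marrow in WT host and WT marrow in WT host, against 642 and 565 CPM in intact KO and intact WT. Traf3, a brake on non-canonical NF-kappa-B signalling, had 58.9, 27.0, 46.9 and 48.0 CPM in the same transplanted libraries, against 358 and 247 CPM in intact KO and intact WT. Tmcc3 had 144, 150, 117 and 67.2 CPM in the transplanted libraries, against 626 and 812 CPM in intact KO and intact WT. These genes were picked after their values were seen, and no test was made. Transplantation and the version of the counting software cannot be told apart in these libraries.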
